A study of Mus musculus with 6 samples.

Results

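The genes described here belong to the acinar cell of the pancreas and were measured in RNA from mouse stomach: digestive enzymes, proteins of their secretory granules, transcription factors, and proteins of the endoplasmic reticulum and cell membrane. They were taken by symbol from a list of 35 names, and 34 of them had a row among the 23550 genes of the expression table. The chymotrypsinogen gene Ctrc was not analysed here. The Riclin group had 3 libraries, replicates 2, 3 and 4, from mice that received 20 mg/kg of Riclin, a fibre that dissolves in water, by gavage for 14 days. The saline group had 3 libraries, replicates 1, 2 and 4, from mice given normal saline by gavage for 14 days. The study took 20 mice for this experiment, and the labels do not say which animal gave which library, so the p-values speak of the spread among libraries, which may be technical. The labels name no strain, age, sex or genetic change. Nor do they say whether any of these mice had received the ethanol of a separate injury experiment in the study.

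Acinar cells make the enzymes that break down protein, fat, starch and nucleic acid in the gut. Most of the proteases are made as inactive precursors (zymogens), packed into granules and released into the pancreatic duct, and trypsin then activates the others in the duodenum. Transcription of the enzyme genes depends on PTF1, a complex of the factor PTF1A with a common E protein and either RBPJ or its pancreatic relative RBPJL. The complex is known from studies in mice to bind an E-box (CANNTG) followed by a TTTCCC box in the promoters of enzyme genes. The stomach has its own enzyme-secreting chief cells, which make pepsinogen, and lies next to the pancreas in the abdomen.

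Because PTF1 is known to act on many of these genes, promoter sequence of 4 of them is shown before the values. The RefSeq table of promoters (build GRCm38.p6) held 32 promoters for 30 of the genes, each of 300 bases, from 250 before to 50 after the start of the gene. In these windows the exact composite CANNTGNNNNTTTCCC, searched on both strands, was found for 3 genes, Ctrb1, Cela1 and Prss1. The 3 promoters are printed because they hold it, and that of Tmed6 because this gene had almost the same level in every library. Capitals mark the E-boxes CACCTG or CAGCTG and the box TTTCCC on either strand, so that CAGGTG and the letters GGGAAA are motifs read from the other strand. The sequences run 5′ to 3′ on the strand of the gene and end at the base before the gene start. They lie at chr8:111691011-111691260 (minus strand) for Ctrb1, chr15:100687922-100688170 (minus) for Cela1, chr6:41458680-41458929 (plus) for Prss1 and chr8:107065645-107065894 (minus) for Tmed6.
Ctrb1: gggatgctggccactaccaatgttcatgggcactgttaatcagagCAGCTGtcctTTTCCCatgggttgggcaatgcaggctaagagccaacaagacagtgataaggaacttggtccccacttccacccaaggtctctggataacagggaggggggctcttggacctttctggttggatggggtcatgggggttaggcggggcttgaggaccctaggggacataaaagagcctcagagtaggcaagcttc
Cela1: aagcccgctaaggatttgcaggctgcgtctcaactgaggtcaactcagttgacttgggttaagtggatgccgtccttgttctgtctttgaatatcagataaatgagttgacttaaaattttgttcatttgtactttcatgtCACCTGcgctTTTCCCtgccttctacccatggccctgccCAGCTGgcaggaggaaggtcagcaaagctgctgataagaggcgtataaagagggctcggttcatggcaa
Prss1: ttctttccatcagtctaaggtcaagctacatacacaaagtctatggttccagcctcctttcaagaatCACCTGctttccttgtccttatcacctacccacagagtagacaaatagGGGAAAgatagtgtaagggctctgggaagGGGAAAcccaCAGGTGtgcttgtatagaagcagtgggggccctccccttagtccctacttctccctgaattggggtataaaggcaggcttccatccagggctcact
Tmed6: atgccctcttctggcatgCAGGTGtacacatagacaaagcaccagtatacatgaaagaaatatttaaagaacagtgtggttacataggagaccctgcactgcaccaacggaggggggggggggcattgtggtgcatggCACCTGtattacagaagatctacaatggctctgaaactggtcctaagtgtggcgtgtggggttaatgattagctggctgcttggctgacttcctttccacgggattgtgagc

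The composite begins 205 bases before the gene start in Ctrb1, 109 in Cela1 and 106 in Prss1, where it stands on the other strand. It occurred in 3 of the 32 promoters, or 9.38%, and in 31 of all 32851 promoters of that length in the table, or 0.0944%. The E-box CACCTG occurred in 56.2% of the acinar promoters and 20.2% of all, and the E-box CAGCTG in 25% and 16.3%. The box TTTCCC occurred in 40.6% and 25.3%, and TATAAA, the core of a TATA box, in 40.6% and 13.6%. The composite contains a TTTCCC and, where its NN letters allow, either E-box, so these shares are not independent of each other. A match is a description of the letters, and a window without a match says nothing of the factors that act there.

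The files hold FPKM, fragments of a gene scaled to its length and to the mapped fragments of the library. Reads per gene and the total of each library could be recovered from the steps in these values. The totals lay between 30884067 and 40050267 per library, a 1.30-fold range, and the recovered reads fell short of them by at most 0.284%. The defining markers of stomach were high in all 6 libraries: Pgc, the pepsinogen gene of chief cells, at 32607 to 79742 FPKM, the proton pump gene Atp4a of parietal cells at 1273 to 2245, and Gkn1 of surface mucous cells at 12812 to 22923. The acinar genes divided the libraries in another way than the treatment. Riclin replicate 3 stood apart with almost none of these transcripts, and saline replicate 1 had less than the other 4.

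The 34 genes together took 11.1, 0.0745 and 10.5% of reads in Riclin replicates 2, 3 and 4, and 4.03, 16.2 and 15.4% in saline replicates 1, 2 and 4. The 95% Wilson interval in Riclin replicate 3 was 0.0737 to 0.0754%, and it covers counting error only, since reads copied by PCR are not independent molecules. In summed FPKM they reached 100916, 592 and 95353 in the Riclin libraries, against 36758, 149720 and 140759 in the saline libraries. This was 16.2, 0.0995 and 15.5% of all FPKM in Riclin libraries and 6.004, 22.9 and 22.4% in saline libraries. The means were 65620 ± 56385 summed FPKM in Riclin and 109079 ± 62792 in saline (SD, n = 3 each). The SD within each group was larger than the difference between the means, and the groups overlapped: Riclin replicates 2 and 4 lay above saline replicate 1 and below saline replicates 2 and 4. In RNA from whole tissue, fewer acinar cells and less RNA per acinar cell cannot be told apart.

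**Figure D1:**
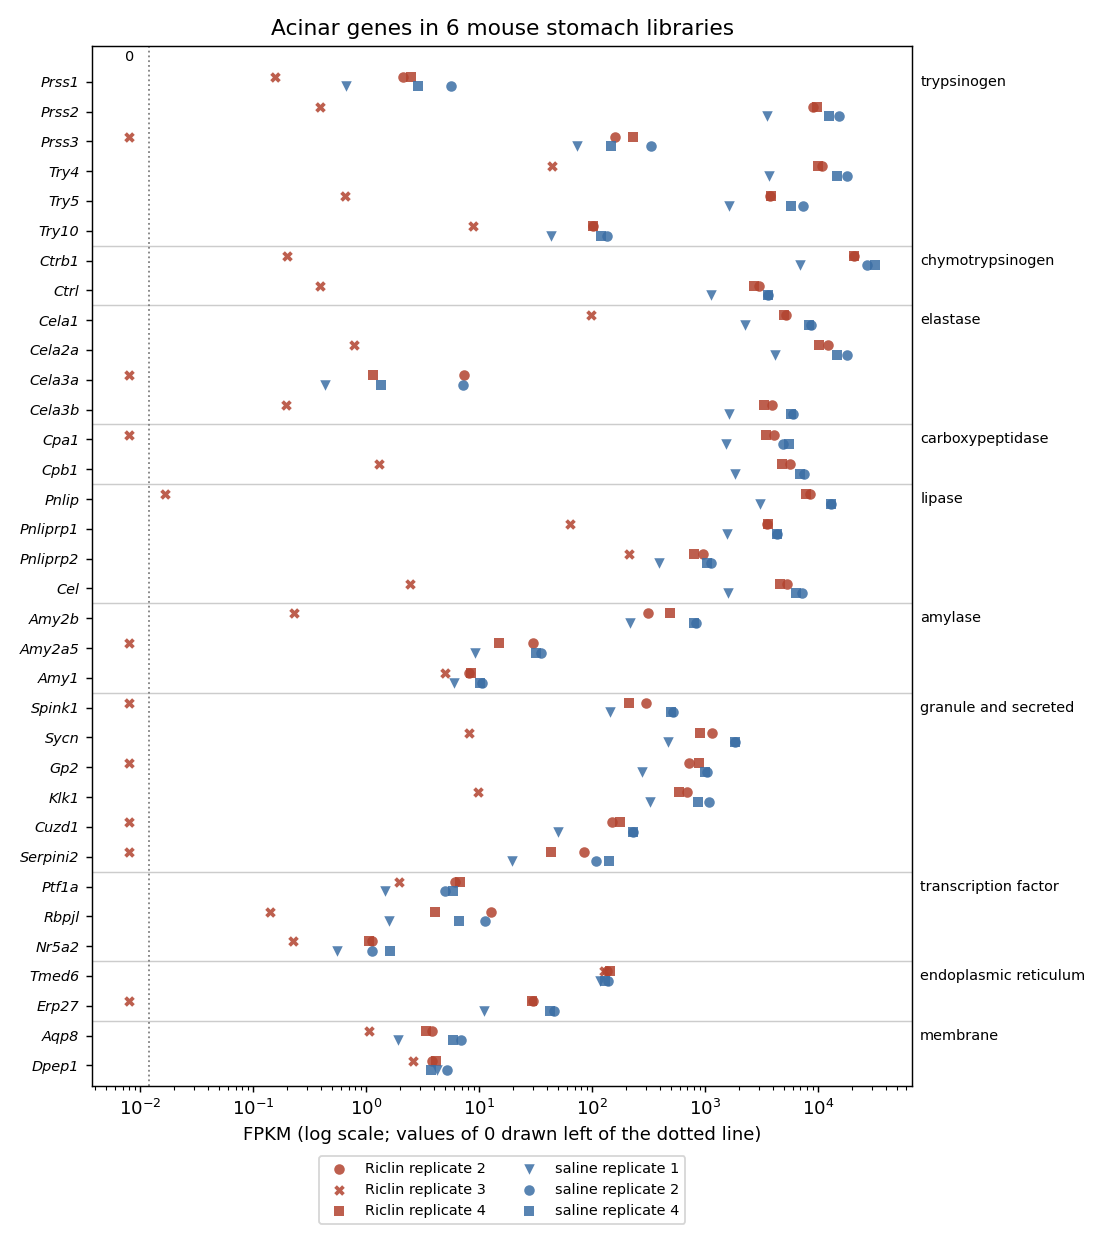
FPKM of each of the 34 acinar genes on a log scale, grouped by role, in 3 Riclin libraries (red) and 3 saline libraries (blue), 1 symbol per library, with values of 0 left of the dotted line. Riclin replicate 3 (crosses) is the lowest of the 6 in 32 genes, and saline replicate 1 (triangles) lies below the other saline libraries in 33.

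By limma with adjustment over all 11738 genes tested, 0 of the 34 genes differed between Riclin and saline at an adjusted p under 0.05, against 0% of all genes tested. All 34 had passed the filter on low values, which asked for 1 FPKM or more in 3 libraries or more. At an unadjusted p under 0.05 the count was 0 of 34, against 5.9% of all genes, and limma's voom on the recovered reads also gave 0 by either measure. The log2 fold change, Riclin minus saline on the log2(FPKM + 1) scale, was below 0 in 32 of the 34, against 38.7% of all genes, with a median of -2.18 against 0.040 over all. It was at or below -1 in 23 of 34, against 0.622% of all genes. The groups did not overlap in 0 of 34, against 11.2% of all genes in either direction and 3.02% with Riclin lower. Adjusted p-values by limma ran from 0.851 to 0.980.

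**Figure D2:**
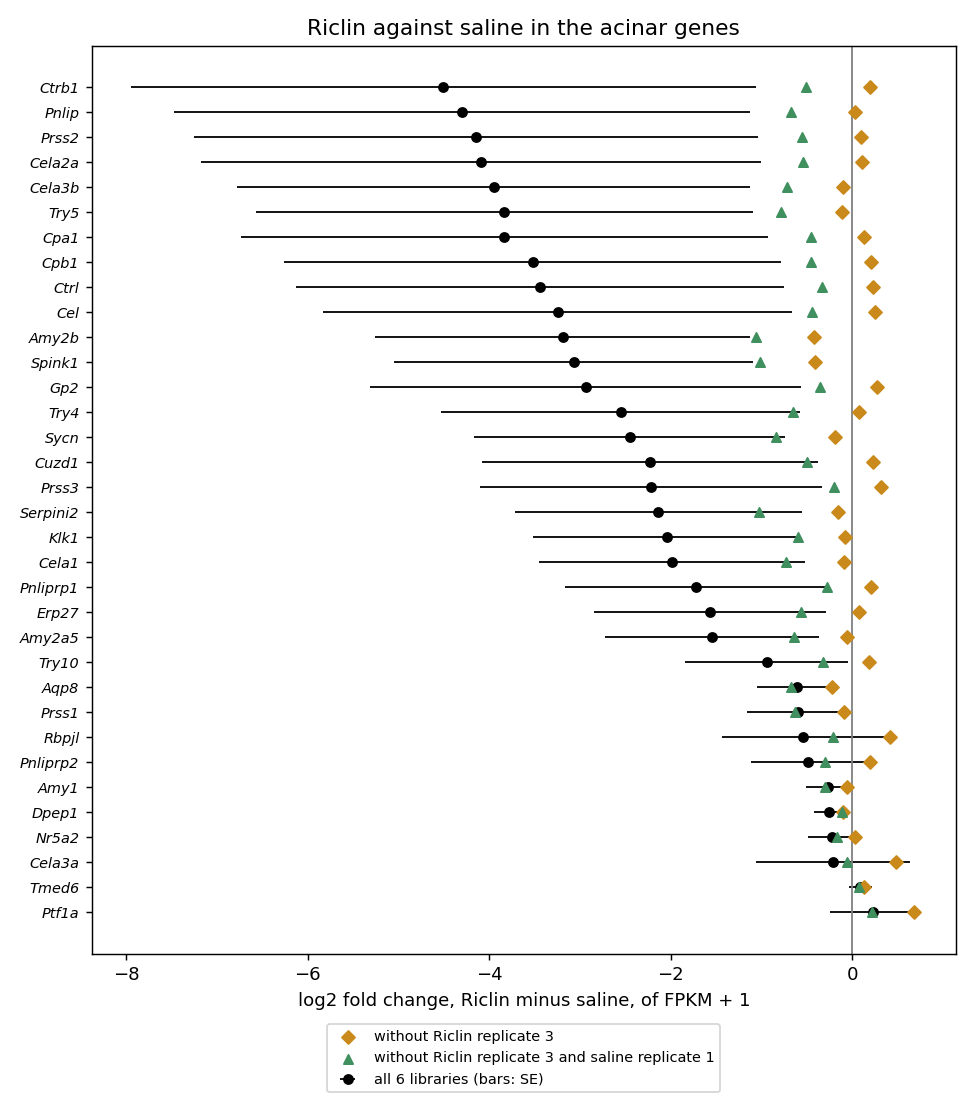
Log2 fold change of FPKM + 1, Riclin minus saline, of each acinar gene in all 6 libraries (black points, bars are the SE of limma), without Riclin replicate 3 (diamonds), and without that library and saline replicate 1 (triangles). The black points have a median of -2.18, the diamonds of 0.086 and the triangles of -0.50.

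The size of these fold changes rested on Riclin replicate 3. Their direction depended on which of Riclin replicate 3 and saline replicate 1 were kept. Without Riclin replicate 3 the median log2 fold change of the 34 genes was 0.086, and 13 were lower and 21 higher in Riclin, where 49.2% of all genes were lower. Then 0 of 34 had an unadjusted p under 0.05, against 5.84% of all. Without saline replicate 1 the median was -2.84, 33 of 34 were lower against 30.8% of all genes, and 2 had an unadjusted p under 0.05 against 7.11%. With both of these libraries left out, 32 of 34 were lower in Riclin, against 40.2% of all genes, with a median of -0.50. In that fit of 4 libraries 15 genes had an unadjusted p under 0.05, each of them lower in Riclin, against 6.54% of all genes in either direction and 2.9% with Riclin lower. By limma 0 genes passed the adjusted threshold there, and the smallest adjusted p of an acinar gene was 0.485. The 2 libraries were left out for their low values in these same genes, so these counts describe the 4 libraries and are no test of Riclin.

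Among those 4 libraries the acinar genes kept a regular order. Riclin replicates 2 and 4 both lay below saline replicates 2 and 4 in 27 of 34 genes, against 13.7% of all genes. Most of the 34 genes rose and fell together across libraries, so the 27 are not separate observations and describe these 4 libraries only. The median ratio over the genes was 0.716 for Riclin replicate 2 over saline replicate 2 and 0.694 for Riclin replicate 4 over saline replicate 4. Within a group the ratios were nearer to 1, at 1.07 for Riclin replicate 2 over replicate 4 and 0.936 for saline replicate 4 over replicate 2. Set against saline replicate 1 the direction turned, with median ratios of 2.57 for Riclin replicate 2 and 2.36 for Riclin replicate 4. Saline replicate 1 had a median of 0.258 of saline replicate 2 and 0.279 of saline replicate 4. It was at most 50% of each of them in 30 of 34 genes, against 1.99% of all.

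The trypsinogens, precursors of the protease that activates the other zymogens, lie in a cluster on chromosome 6 (mm10, GENCODE M21). Prss2 (chromosome 6, 41521787 to 41525079), which encodes an anionic trypsinogen, measured 8984, 0.393 and 9926 FPKM in Riclin replicates 2, 3 and 4, against 3549, 15518 and 12482 in saline replicates 1, 2 and 4. The Riclin value of 0.393 rested on 13 reads, and the other Riclin libraries fell between saline replicate 1 and the higher saline pair. Its log2 fold change was -4.14 (SE 3.11, limma adjusted p = 0.881). Try4 (41302269 to 41305532) measured 10906, 44.3 and 10124 FPKM in Riclin, against 3712, 18260 and 14851 in saline. Of the abundant trypsinogens it kept the most reads in Riclin replicate 3, 1417. Try5 (41311233 to 41316841) had 3747, 0.655 and 3872 FPKM in Riclin, against 1624, 7407 and 5789 in saline, and followed the order of Prss2.

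Prss3 was lower in abundance, at 158, 0 and 230 FPKM in Riclin and 74.1, 330 and 147 in saline, and Riclin replicate 4 lay above saline replicate 4. Try10 measured 101, 8.84 and 101 FPKM in Riclin and 43.4, 135 and 119 in saline, and kept 315 reads in Riclin replicate 3. Prss1, at 2.13, 0.155 and 2.48 FPKM in Riclin against 0.669, 5.68 and 2.89 in saline, was the scarcest of the 6. Several trypsinogen genes are close copies, so the authors' counting may have split reads between them. Of the 50-base windows in their exons, another gene holds 66.1% for Prss3, 65.6% for Try4, 54.9% for Prss1, 47.6% for Try5 and 40.8% for Try10, but 7.83% for Prss2. The values of those 5 genes are uncertain for that reason.

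Ctrb1 (chromosome 8, 111686519 to 111691010) encodes chymotrypsinogen B, which cuts after large hydrophobic residues, and was the most abundant of the 34 genes per gene length in every library but Riclin replicate 3. It measured 20716, 0.197 and 20968 FPKM in Riclin, against 6922, 27485 and 31885 in saline. The middle Riclin value rested on 7 reads, against 684532 and 707160 in the other Riclin libraries and 238679 to 878189 in saline. Its log2 fold change of -4.50 (SE 3.44, limma adjusted p = 0.882) was the lowest of the 34, and it was 0.19 without Riclin replicate 3. Ctrl (chromosome 8, 105932003 to 105933862), a chymotrypsin-like protease, measured 3019, 0.394 and 2716 FPKM in Riclin, against 1121, 3606 and 3606 in saline, and likewise had its Riclin replicates 2 and 4 between saline replicate 1 and the other saline libraries.

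The elastases are proteases as well. Cela2a (chromosome 4, 141814962 to 141826160) measured 12306, 0.784 and 10260 FPKM in Riclin, against 4194, 18165 and 14762 in saline. In the annotation its exons overlap a transcript of Ctrc, so some reads may belong to either. Cela3b had 3889, 0.195 and 3314 FPKM in Riclin and 1618, 6030 and 5828 in saline, and again only Riclin replicate 3 was near 0. Cela1 (chromosome 15, 100674421 to 100687921) measured 5257, 98.7 and 5046 FPKM in Riclin, against 2271, 8667 and 8367 in saline. It kept 4373 reads in Riclin replicate 3, which was 4.35% of its lowest level elsewhere, where Cela2a kept 0.0187%. The scarce Cela3a had 7.29, 0 and 1.15 FPKM in Riclin and 0.430, 7.22 and 1.35 in saline. It shares 34.2% of its windows with Cela3b, and it was the gene in which replicate 2 of each group lay far above the rest.

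The carboxypeptidases remove residues from the C-terminal end of peptides, CPA1 hydrophobic ones and CPB1 basic ones. Cpa1 (chromosome 6, 30639218 to 30645363) measured 4111, 0 and 3506 FPKM in Riclin, against 1531, 4913 and 5547 in saline. In Riclin replicate 3 it had 0 reads of 40050267, which allows a share of up to 7.49e-06% of reads, while saline replicate 1 had 94118 reads. Cpb1 (chromosome 3, 20248264 to 20275733) measured 5716, 1.29 and 4856 FPKM in Riclin and 1837, 7499 and 6959 in saline. In both genes Riclin replicates 2 and 4 lay above saline replicate 1 and below the other saline libraries.

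Pnlip (chromosome 19, 58652498 to 58681788) encodes the pancreatic lipase that splits dietary triglyceride with the help of colipase. It measured 8561, 0.0167 and 7870 FPKM in Riclin, against 3051, 13195 and 13040 in saline, and the Riclin value of 0.0167 was 1 read. Cel, the bile salt-activated carboxyl ester lipase, had 5295, 2.45 and 4655 FPKM in Riclin and 1589, 7167 and 6360 in saline. Its 204 reads in Riclin replicate 3 were 0.154% of its lowest level elsewhere.

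The other lipases of the same chromosome 19 cluster held on to more of their level. Pnliprp1 (58728887 to 58744169), a close relative of pancreatic lipase with little lipase activity of its own, measured 3523, 64.1 and 3597 FPKM in Riclin, against 1579, 4309 and 4356 in saline. Pnliprp2 (58759719 to 58777534), a lipase that also acts on galactolipids, measured 969, 213 and 797 FPKM in Riclin, against 389, 1130 and 1034 in saline. With 13368 reads it was the most abundant of the 34 genes in Riclin replicate 3, where its level was 54.7% of that in saline replicate 1. Its log2 fold change was -0.49 (SE 0.63, limma adjusted p = 0.924). Pnlip, Pnliprp1 and Pnliprp2 lie on the same stretch of chromosome 19, and 0% of their 50-base windows occur in other genes.

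Amylases digest starch. Amy2b measured 316, 0.230 and 486 FPKM in Riclin, against 215, 833 and 799 in saline, and its limma adjusted p of 0.851 was the smallest of the 34 together with that of Spink1 and Dpep1. Its log2 fold change was -3.19 (SE 2.06), and -0.42 without Riclin replicate 3. GENCODE M21 annotates it as an unprocessed pseudogene, and 40.3% of its windows occur in other genes, so its value is uncertain. Amy2a5 had 29.7, 0 and 14.9 FPKM in Riclin and 9.14, 35.6 and 31.6 in saline, with 53.5% of its windows shared. Amy1, the salivary form of amylase, had 8.18, 5.00 and 8.42 FPKM in Riclin and 5.99, 10.7 and 10.2 in saline. Its Riclin replicate 3 value was 83.6% of saline replicate 1, while the pancreatic amylases there were at or near 0, but its annotated exons overlap those of Rnpc3.

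The granule and secreted proteins followed the enzymes. Spink1 (chromosome 18, 43728082 to 43737557), the trypsin inhibitor packed with the zymogens, measured 300, 0 and 211 FPKM in Riclin, against 143, 516 and 505 in saline. Both higher Riclin libraries lay below both higher saline libraries, and its unadjusted p of 0.161 was the smallest of the 34 (log2 fold change -3.07, SE 1.98, limma adjusted p = 0.851). Sycn, which encodes syncollin of the granule membrane, had 1157, 8.20 and 898 FPKM in Riclin and 468, 1828 and 1838 in saline. Gp2 (chromosome 7, 119442537 to 119459285), the major glycoprotein of the granule membrane, had 717, 0 and 889 FPKM in Riclin and 275, 1036 and 1003 in saline. Its 0 in Riclin replicate 3 stood against at least 21228 reads in each other library. Klk1, tissue kallikrein, measured 691, 9.77 and 589 FPKM in Riclin and 325, 1079 and 867 in saline, and 24.0% of its windows occur in other genes, among them other kallikreins. Cuzd1 had 150, 0 and 177 FPKM in Riclin and 50.05, 229 and 231 in saline, and the serpin gene Serpini2 had 84.4, 0 and 43.1 in Riclin and 19.6, 109 and 141 in saline. The Serpini2 ratio of Riclin replicate 4 to saline replicate 4, 0.305, was the lowest of the 34.

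The transcription factors were scarce in all libraries, and Riclin replicate 3 and saline replicate 1 were the lowest pair of libraries in each of them. Ptf1a (chromosome 2, 19445663 to 19447501), the pancreatic subunit of PTF1, measured 6.16, 1.94 and 6.78 FPKM in Riclin, against 1.47, 5.01 and 5.84 in saline. Its lowest library was saline replicate 1 and not Riclin replicate 3, which kept 117 reads. The log2 fold change of 0.23 (SE 0.47, limma adjusted p = 0.952) was the highest of the 34, but leaving out saline replicate 1 turned it to -0.23 and leaving out Riclin replicate 3 gave 0.68. Rbpjl (chromosome 2, 164403141 to 164415448) measured 12.8, 0.141 and 4.04 FPKM in Riclin, against 1.58, 11.2 and 6.66 in saline, and kept 15 reads in Riclin replicate 3, 8.88% of its lowest level elsewhere. Nr5a2, a nuclear receptor that works with PTF1 in acinar cells of mice, had 1.13, 0.226 and 1.06 FPKM in Riclin and 0.553, 1.12 and 1.62 in saline. In Riclin replicate 3 these 3 regulators thus kept 8.88 to 132% of their lowest level elsewhere.

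Tmed6 (chromosome 8, 107061476 to 107065644), a member of the p24 family of proteins in the early secretory pathway, differed least between libraries. It measured 136, 128 and 145 FPKM in Riclin, against 118, 138 and 130 in saline, and its log2 fold change was 0.087 (SE 0.12, limma adjusted p = 0.930). Erp27 (chromosome 6, 136907311 to 136922180), a non-catalytic relative of protein disulphide isomerase in the endoplasmic reticulum, had 29.7, 0 and 29.5 FPKM in Riclin and 10.98, 46.1 and 42.5 in saline. It therefore went with the enzymes, at 0 reads in Riclin replicate 3. The water channel gene Aqp8 had 3.81, 1.06 and 3.40 FPKM in Riclin and 1.90, 6.87 and 5.82 in saline. Its log2 fold change in all 6 libraries was -0.61 (SE 0.44, limma adjusted p = 0.871). Without saline replicate 1 and Riclin replicate 3 the log2 fold change of Aqp8 was -0.67 (SE 0.13, limma adjusted p = 0.485). Those libraries were left out for low values in these same genes, so the second fit is no test of Riclin. Dpep1, a membrane dipeptidase, had 3.86, 2.62 and 4.17 FPKM in Riclin and 4.23, 5.21 and 3.75 in saline, and saline replicate 4 lay below both higher Riclin libraries.

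The acinar genes were not equally low in Riclin replicate 3. In that library 9 genes had 0 reads: Prss3, Cela3a, Cpa1, Amy2a5, Spink1, Gp2, Cuzd1, Serpini2 and Erp27. A further 10 had reads but were under 1% of the lowest other library: Prss2, Try5, Ctrb1, Ctrl, Cela2a, Cela3b, Cpb1, Pnlip, Cel and Amy2b. Together these 19 of 34 stood against 0.392% of all genes tested. Another 6 kept 1.19 to 8.88% of their lowest level elsewhere (Try4, Cela1, Pnliprp1, Sycn, Klk1 and Rbpjl). The last 9 kept 20.4 to 132% (Prss1, Try10, Pnliprp2, Amy1, Ptf1a, Nr5a2, Tmed6, Aqp8 and Dpep1). It was the lowest of the 6 libraries in 32 of the 34 genes, against 5.3% of all genes. Among 3748 genes with at least 10 FPKM in each of the other 5 libraries, 27 were under 1% of the lowest of them in Riclin replicate 3, and 17 of those 27 belong to the 34.

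**Figure D3:**
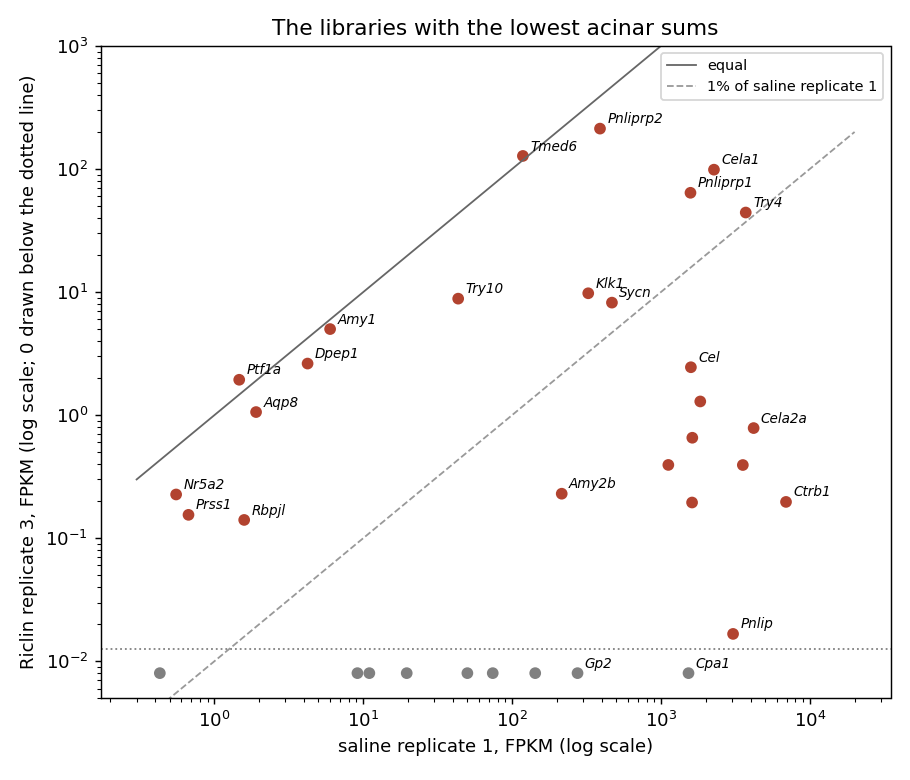
FPKM of each acinar gene in Riclin replicate 3 (vertical) against saline replicate 1 (horizontal), both on log scales, with genes at 0 in Riclin replicate 3 drawn in grey under the dotted line. Tmed6, Ptf1a and Amy1 lie near the line of equal levels, while Ctrb1, Pnlip and Cpa1 lie far under the line of 1%.

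The make-up of the acinar signal was nearly the same in the other 5 libraries. As a percent of the summed FPKM of the 34 genes, the trypsinogens held 23.7 to 27.8%, the chymotrypsinogens 20.8 to 25.2% and the elastases 19.5 to 22.0%. The lipases held 17.2 to 18.2%, the carboxypeptidases 8.29 to 9.74%, and the amylases 0.350 to 0.627%. The 5 largest genes together held 58.3 to 62.0%. Gene by gene, the share varied less than 1.5-fold over these 5 libraries in 21 of 34 genes, with a median range of 1.41-fold, and Erp27 varied least, 1.05-fold. More than 2.5-fold was seen in 4 genes: Cela3a at 7.52-fold, Dpep1 at 4.32-fold, Tmed6 at 3.50-fold and Rbpjl at 2.99-fold.

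In Riclin replicate 3 the make-up was another. Pnliprp2 held 35.9% of the summed FPKM, Tmed6 21.6%, Cela1 16.7%, Pnliprp1 10.8% and Try4 7.48%, together 92.5%. The chymotrypsinogens, which held over 20% elsewhere, held 0.0997% there, and the carboxypeptidases 0.218%.

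**Figure D4:**
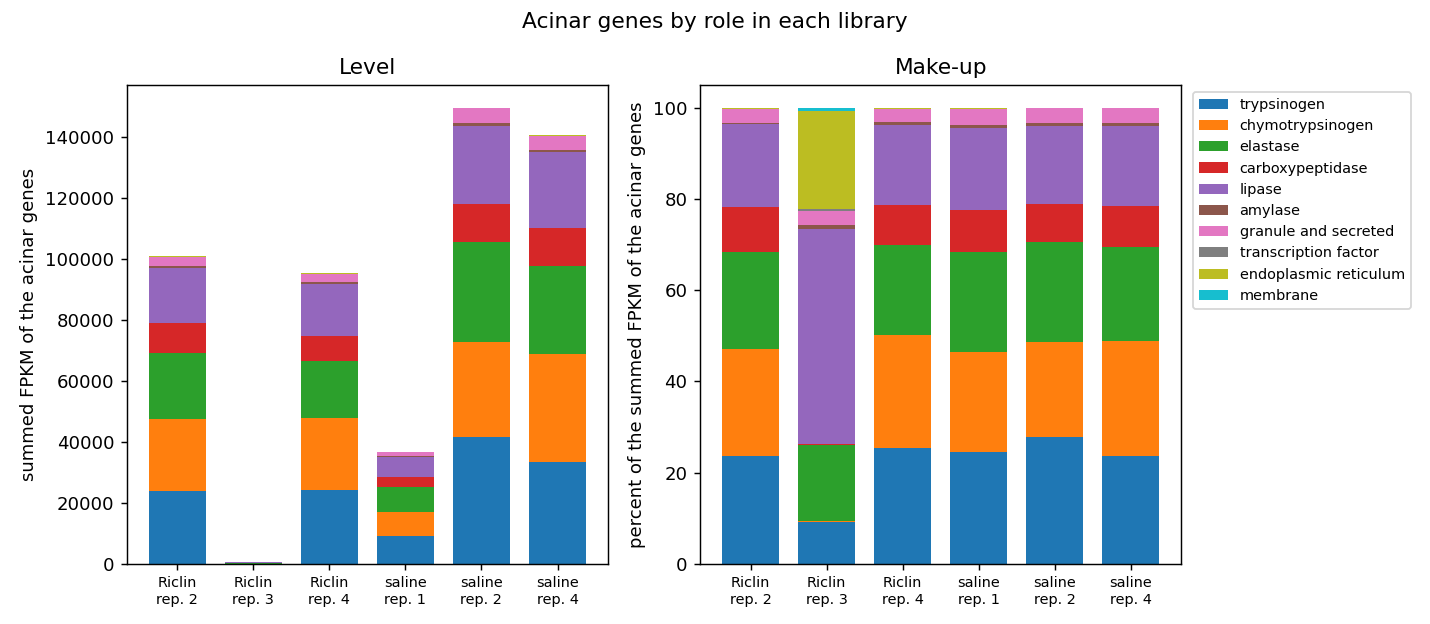
Summed FPKM of the 34 acinar genes by role in each library (left) and the same as percent of the sum (right), Riclin libraries left of saline libraries, 1 bar per library. The level ranges from 592 to 149720 summed FPKM, and the make-up is alike in all libraries but Riclin replicate 3, where lipases and the endoplasmic reticulum gene Tmed6 lead.

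Other genes known from acinar cells divided into genes that went with the enzymes, genes that did so in part and genes that did not. Of 12 such genes outside the 34, limma called 0 at an adjusted p under 0.05, 6 were lower and 6 higher in Riclin, and the median log2 fold change was -0.28 against 0.040 over all genes. The ribonuclease Rnase1 ranged over 1574 to 5932 FPKM outside Riclin replicate 3, where it had 15.96, and the granule lectin Zg16 over 1232 to 4677, with 40.2 in that library. By contrast the colipase gene Clps, whose product is the cofactor of pancreatic lipase, measured 36653, 46052 and 38495 FPKM in Riclin and 38188, 23892 and 29769 in saline, highest in the library where Pnlip had 1 read. The phospholipase gene Pla2g1b measured 17029, 21654 and 17035 FPKM in Riclin and 17313, 7925 and 11788 in saline. It was also highest in Riclin replicate 3 and lowest in saline replicate 2. The values of Clps and Pla2g1b are FPKM as deposited, not rescaled for the acinar share of each library. Leaving the acinar genes out of the totals would divide them by 1.12 in Riclin replicate 3 and by 0.948 in saline replicate 2. Bhlha15 is a factor of secretory cells that chief cells also express. It had 21.2, 11.4 and 21.9 FPKM in Riclin and 11.3, 15.8 and 15.4 in saline, lowest in saline replicate 1 and Riclin replicate 3. Cckar was lowest in the same libraries, at 56.5, 31.3 and 56.9 FPKM in Riclin and 29.9, 43.1 and 52.1 in saline. Gatm was too, at 34.6, 5.46 and 28.4 FPKM in Riclin and 13.3, 42.8 and 33.1 in saline. The disulphide isomerase Pdia2 and the secretory factor Xbp1 ranged over 421 to 644 and 140 to 172 FPKM. The genes outside the 34 that were most like them in Riclin replicate 3, by the log2 difference between the median of the other 5 libraries and that library, began with the amylase Amy2a1, at 0.683 FPKM there and 2138 to 8450 elsewhere.

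Markers of other cell types moved with the acinar sum in part. The islet list of 7 genes summed to 56.0, 3.20 and 27.0 FPKM in Riclin and 23.5, 54.9 and 39.3 in saline. Of its 5 tested genes 5 were lower in Riclin, against 38.7% of all genes, with 0 called by limma. The insulin genes Ins1 and Ins2 had 0 and 0.0428 FPKM in Riclin replicate 3, and 5.78 to 18.0 and 9.97 to 31.9 in the other libraries. Gcg, Iapp and Ppy also had their lowest values in Riclin replicate 3, and Slc30a8 was at or near 0 in every library. Pcsk2 differed, at 1.79, 2.06 and 1.19 FPKM in Riclin and 3.70, 2.31 and 2.39 in saline. It made up most of the islet sum in Riclin replicate 3. The duct list of 5 genes summed to 1226, 1535 and 1340 FPKM in Riclin and 1958, 1325 and 1523 in saline, and so did not have its low point in Riclin replicate 3. It is led by Krt19, which gastric epithelium also expresses. The sum of the chief cell list of 4 genes, of which Bhlha15 is also in the acinar list, ran the other way. It was 60561, 81984 and 62328 FPKM in Riclin and 64034, 33811 and 43628 in saline. Its highest value was in Riclin replicate 3 and its lowest in saline replicate 2. This sum was not rescaled for the acinar share either, which raises other genes in Riclin replicate 3 relative to saline replicate 2. The factor dividing it, with the acinar genes left out of the totals, would be 1.12 in Riclin replicate 3 and 0.948 in saline replicate 2. Pgc made up most of this sum, with 79742 FPKM in Riclin replicate 3, and Cblif had its highest and lowest values in the same libraries. Pga5 did not, at 222, 197 and 313 FPKM in Riclin and 268, 159 and 93.7 in saline, nor did Bhlha15.

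Other lists divided the libraries differently. The antral genes Gast and Pdx1 summed to 424, 393 and 4.55 FPKM in Riclin and 1043, 683 and 951 in saline, with the low value in Riclin replicate 4. The parietal list of 4 genes ranged over 4112 to 5555 summed FPKM in Riclin and 3083 to 4562 in saline, and the surface mucous list of 4 over 58057 to 82718 and 61279 to 104801. The mucous neck list of 2 ranged over 1925 to 5449 and 4315 to 11445. The adipocyte list of 4 ranged over 104 to 244 summed FPKM in Riclin and 209 to 262 in saline, and the intestinal list of 4 over 19.9 to 65.8 and 48.8 to 136. The liver list of 5 ranged over 1039 to 1647 summed FPKM in Riclin and 886 to 1314 in saline, of which Apoa1, also expressed in intestine, made up 821 to 1447. Alb, the albumin gene, measured 3.45, 100.8 and 53.4 FPKM in Riclin and 142.5, 20.999 and 2.58 in saline. The fibrinogen gene Fgb measured 0.236, 8.83 and 4.33 FPKM in Riclin and 15.2, 1.74 and 0.171 in saline, and the antitrypsin gene Serpina1c 0.0377, 9.01 and 2.18 in Riclin and 7.53, 1.52 and 0.0227 in saline. All 3 of these were highest in Riclin replicate 3 and saline replicate 1, the libraries lowest in the acinar sum. Ttr was too, by a small margin, at 55.4, 81.4 and 74.9 FPKM in Riclin and 77.8, 38.5 and 62.7 in saline. The liver values were not rescaled for the acinar share, which raises other genes in both of those libraries. The factor dividing them, with the acinar genes left out of the totals, would be 1.12 in Riclin replicate 3 and 1.08 in saline replicate 1. Apoa1 was highest in Riclin replicate 3. Its value in saline replicate 1, 1071, lay below Riclin replicate 4 at 1365 and saline replicate 2 at 1078. The list of spleen and lymph node genes stayed between 0.808 and 1.24 in Riclin and between 0.833 and 6.91 in saline. Of 5 salivary and lacrimal genes, 2 were in the table, Amy1 and Prol1, and Prol1 was listed at 0 in all libraries but saline replicate 2, where it had 0.0952 FPKM. What part the amount of other tissue in a library has in the acinar values was not tested.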

How the data were processed

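RNA from mouse stomach was measured in 6 libraries, grouped by the treatment label, with replicate numbers from the sample titles. TRIzol extraction and a VAHTS Universal V6 library kit are recorded in the labels' protocols. The submitters' processing notes name mm10 as the build and list Bowtie2, without saying what it did or in which version. How reads were counted, on which annotation and with or without strand was not given in the sources used here. FPKM values were deposited by the authors, normalised to gene length and mapped fragments, for 23550 gene symbols. Because FPKM is relative to each library's total, a library with few acinar transcripts has higher values of all other genes. With the acinar genes left out of the totals, the factor dividing a library's values was 1.12 in Riclin replicate 3 and 1.08 in saline replicate 1. It was 0.979 and 0.976 in Riclin replicates 2 and 4, and 0.948 and 0.917 in saline replicates 2 and 4.

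From there, log2(FPKM + 1) was fitted for Riclin minus saline with limma 3.58.1 (trend, two-sided) in R 4.3.3 over the 11738 genes with at least 1 FPKM in at least 3 of 6 libraries, with Benjamini-Hochberg adjustment over all of them. The step was tested on simulated data. Reads were recovered from the FPKM steps for 23538 genes (99.9%, relative tolerance 1e-09), and limma's voom was run on them as an alternative. In all 16 alternative settings were run. The 35 named genes, the marker lists and the alternatives were chosen with earlier results of these data known, and every gene of the list could be named. Values of a further gene among the other acinar genes are not reported here. Positions and shared exon windows of 50 bases came from GENCODE M21 (mm10) and promoters from RefSeq. The numbers behind depth are the library totals at which gene lengths came out whole. Tables were read with pandas 2.3.3 and figures drawn with matplotlib 3.10.9 under Python 3.11.15.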

Additional observations from a re-analysis of the deposited data

How the results depend on the processing

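Under all 16 alternative settings limma called 0 acinar genes, with 34 of them tested (29 with a filter at an FPKM of 5). A robust variance prior called 2 of all genes, and leaving out saline replicate 2 called 1, none of them acinar. The count with an unadjusted p under 0.05, 0 with all libraries, was 14 with the replicate block, where 648 of all 11738 genes had such a p, and 15 without saline replicate 1 and Riclin replicate 3, where 768 of all genes had. It was 0 to 2 with any single library left out. The labels do not say that a number pairs mice, and only numbers 2 and 4 are shared. Deviations of these libraries from their group means correlated at 0.222 and 0.0109. With 3 libraries per group, such values cannot tell whether libraries with the same number are paired. The block uses the same 4 libraries as leaving out both, by construction, and its median log2 fold change was also -0.50. The median was -2.64 with a pseudocount of 0.1, -2.45 with a filter at an FPKM of 5, -3.59 with voom, and between -2.19 and -2.17 under the 3 other scalings. With single libraries left out it ran from -3.36 to 0.086. Those other scalings moved the means of the summed FPKM to at most 67207 in Riclin and 115190 in saline.

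Without Riclin replicate 3 the log2 fold change turned in 19 genes. The ranges with single libraries left out, whose upper ends are the values without it unless said otherwise, were -6.30 to 0.098 for Prss2, -3.61 to 0.31 for Prss3, -3.89 to 0.068 for Try4 and -1.50 to 0.19 for Try10. They were -6.86 to 0.19 for Ctrb1, -5.31 to 0.23 for Ctrl and -6.26 to 0.11 for Cela2a. For Cela3a the range was -1.04 to 0.51, at 0.48 without Riclin replicate 3 and 0.51 without saline replicate 2. They were -5.87 to 0.13 for Cpa1, -5.44 to 0.20 for Cpb1, -6.49 to 0.025 for Pnlip, -2.69 to 0.20 for Pnliprp1, -0.98 to 0.19 for Pnliprp2 and -5.04 to 0.25 for Cel. They were -4.62 to 0.28 for Gp2, -3.51 to 0.23 for Cuzd1, -1.38 to 0.42 for Rbpjl, -0.43 to 0.029 for Nr5a2 and -2.40 to 0.075 for Erp27. Ptf1a ranged from -0.23 to 0.68, with -0.024 without Riclin replicate 4 and -0.23 without saline replicate 1. Reads limit the scarcest genes, Prss1 and Rbpjl having 5 and 15 in Riclin replicate 3.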

Other observations

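Among the 10 genes outside the acinar list that were most like it in Riclin replicate 3 were 5 of the Reg family, which encode small secreted C-type lectins known from pancreas and intestine. Reg1 measured 3782, 0.680 and 4087 FPKM in Riclin and 1453, 8886 and 5678 in saline, in the library order of Prss2. Reg2 measured 4773, 0.144 and 4180 FPKM in Riclin and 1193, 2870 and 1968 in saline, so that the higher Riclin libraries lay above all saline libraries. Reg3a measured 345, 0 and 1050 FPKM in Riclin and 117, 305 and 121 in saline, and Reg3b 285, 0 and 1026 in Riclin and 159, 312 and 179 in saline, each highest in Riclin replicate 4. Reg3d measured 180, 0 and 183 FPKM in Riclin and 53.9, 193 and 118 in saline. Amy2a1, 2210010C04Rik, Rnase1 and Zg16 were also among them. Riclin replicate 4, the library with 2.62 FPKM of Gast, thus had the highest Reg3a and Reg3b.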
